A study of Mus musculus with 69 samples.

Results

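ERK feedback and target genes are the genes that cells switch on when the RAS–ERK pathway is active and that report on, or restrain, its activity. The 9 genes described here were taken by symbol from the count table, which holds 55367 symbols. They are Spry1, Spry2 and Spry4, Spred1, Il17rd, Dusp4, Dusp6, Etv4 and Etv5. All 9 were found, the lowest count of any of them in any library was 417, and all 9 passed the filter on low counts in every fit.

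ERK is the last kinase of a cascade that runs from a receptor tyrosine kinase, such as a fibroblast growth factor (FGF) receptor, through RAS and further kinases. Sprouty proteins (Spry1, Spry2, Spry4), Spred1 and the membrane protein Il17rd, also known as Sef, hold the cascade back upstream of ERK or at its membrane steps. Dusp4 and Dusp6 are phosphatases that remove the activating phosphates from MAP kinases, with Dusp6 acting on ERK in the cytoplasm and Dusp4 in the nucleus. Etv4 and Etv5 are ETS transcription factors of the PEA3 group and are classical FGF targets. In mouse embryonic stem (mES) cells FGF–ERK signalling drives the exit from naive pluripotency, and in the elongating embryo an FGF gradient that is highest at the tail end keeps presomitic mesoderm immature.

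The study mixed fluorescently labelled mES cell clones into mosaic gastruloids, which are aggregates that form axial tissues after a Wnt agonist pulse from 48 to 72 h. WT–mCherry carries H2B–mCherry, WT–emiRFP carries H2B–emiRFP, and p53KO–emiRFP is a daughter clone of WT–emiRFP with a homozygous frameshift in Trp53, so the p53KO genotype rests on 1 clone. The 3 clones were sequenced as mES cells in serum and LIF (0 h), and 4 populations were sorted by flow cytometry at 48, 72, 96, 120 and 144 h. WT–mCherry and WT–emiRFP cells came from WT + WT gastruloids of 150 cells of each clone, and WT–mCherry and p53KO–emiRFP cells from WT + p53KO gastruloids of 150 and 25 cells. Each of the 23 groups had 3 libraries, which the study describes as coming from 3 separate experiments, and this gave 69 libraries of poly-A RNA.

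Library totals ran from 26722541 to 72981570 counts with a median of 53098728.0. Trp53 had 2484 ± 136 normalised counts in p53KO–emiRFP mES cells and 25497 ± 1924 in WT–emiRFP mES cells, and the groups stayed apart in the same direction at every later time point. H2bc14, an H2B gene whose reads were high in the emiRFP libraries and near absent in WT–mCherry mES cells, was used to gauge emiRFP RNA in sorted WT–mCherry libraries. Its level beside p53KO cells was 7.46%, 3.01% and 6.66% of that in the partner p53KO–emiRFP library in replicates 1, 2 and 3 at 120 h and 16.9%, 2.39% and 9.23% at 144 h. Beside WT cells it was 2.11%, 1.64% and 1.16% of the partner at 120 h and 2.12%, 0.191% and 1.7% at 144 h. The naive pluripotency markers that define mES cells summed to 168136 to 208902 normalised counts in the libraries at 0 h and to 10693 to 15983 at 48 h.

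Normalised counts are the deposited counts divided by size factors computed as medians of ratios over all 69 libraries, and n is 3 for every group below. Divided by exon length, the median over all libraries was highest for Etv5, at 4982 normalised counts per kb. Spry2, Dusp6, Etv4 and Dusp4 followed with 1973, 1931, 1835 and 1819.6 per kb. Il17rd, Spred1, Spry4 and Spry1 were lower, with 872, 788, 560.4 and 442 per kb. The widest range of group means was that of Spry4, 14.5-fold from WT–mCherry cells beside p53KO cells at 144 h to p53KO–emiRFP mES cells. Dusp4 ranged 13.6-fold, Etv4 6.70-fold and Il17rd 6.57-fold. Spry2 had the narrowest range, 2.58-fold. When the 23 groups were ordered by mean, most of the 22 neighbouring pairs overlapped in their libraries, from 15 pairs for Etv4 to 21 for Spred1, so the order of close groups is not resolved.

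**Figure D1:**
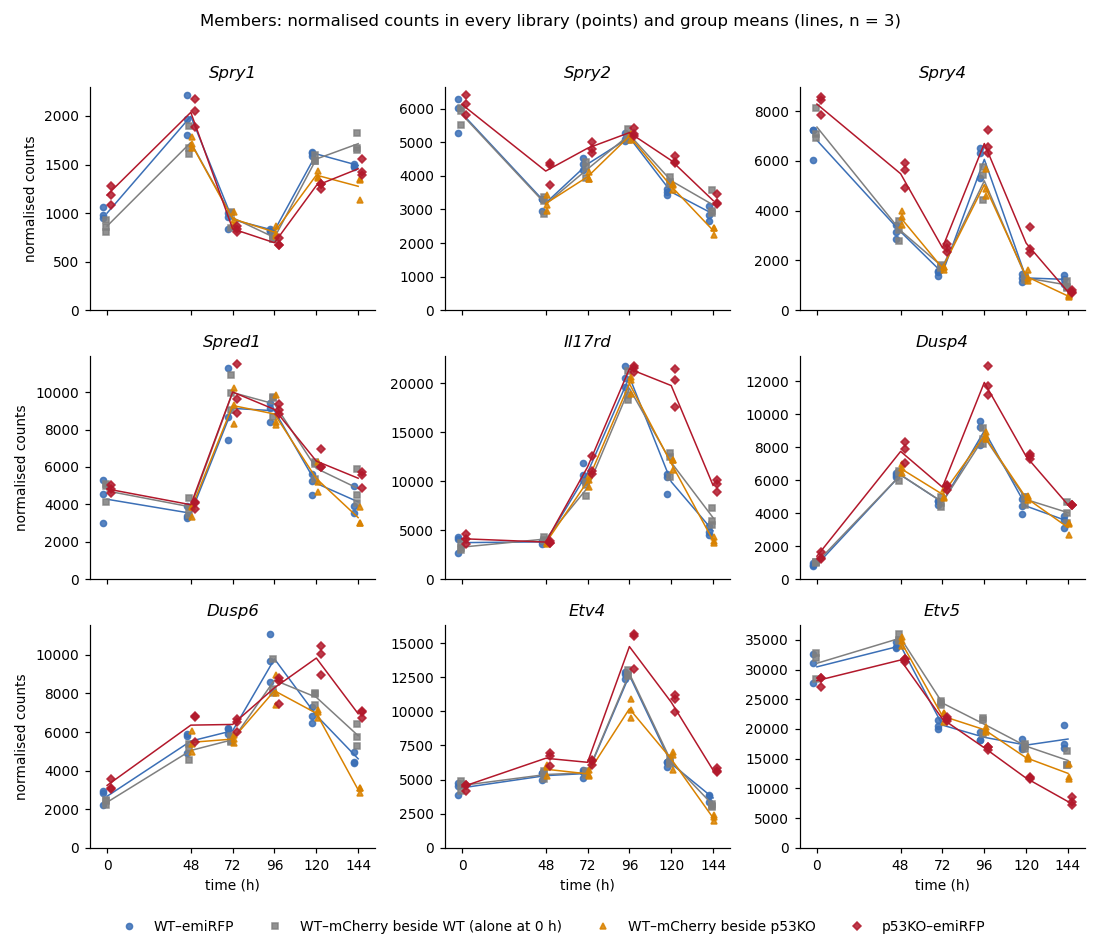
Normalised counts (vertical axis, linear from 0) against time in h for the 9 genes, with a point for each library and a line through the means of 3 libraries. At 144 h the WT–mCherry libraries beside p53KO cells have 2845 to 3098 counts of Dusp6, below all 9 libraries of the other populations, and Spry4 reaches its lowest values there.

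The members lie on 8 chromosomes of GRCm38. Spry1 lies on chromosome 3 from 37639947 to 37644598 on the plus strand, Dusp6 on chromosome 10 from 99263231 to 99267489 on the plus strand, and Spred1 on chromosome 2 from 117121374 to 117182279 on the plus strand. Il17rd lies on chromosome 14 from 27038941 to 27107286 on the plus strand and Etv5 on chromosome 16 from 22381309 to 22439719 on the minus strand. Spry1 shares 710 exonic bases with Gm42922 on the other strand. The highest count of Gm42922 in any library was 18 and the lowest of Spry1 417.

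RefSeq promoter windows on GRCm38.p6 were matched for 6 of the 9 genes, 7 windows in all because Etv5 has 2. The 250 bases before each start were searched on both strands for an ETS motif (CCGGAAG), an AP-1 motif (TGACTCA) and a TCF/LEF motif (CTTTGAT), which 6.91%, 4.46% and 3.21% of 32851 promoters of that length hold. None of the 7 windows held any of these letters. The shorter ETS core CGGAA, chosen after that result and contained in the ETS motif, is in 25.2% of all promoters and was found in the windows of Dusp6 (3 matches), Il17rd (2 matches) and Spred1 (1 match). The windows of Dusp6 and Spry1 are shown because these genes changed in opposite directions in p53KO–emiRFP cells at 120 h, and that of Spred1 because it changed as Dusp6 did. Spry2, which also changed as Dusp6 did, had no match of the core, and neither had Etv5, which changed as Spry1 did. Whether the core goes with the direction of change was not tested. The Spred1 window ends at 117121070, before its Gencode start at 117121374. Capitals mark the core or its reverse complement, and each sequence runs 5′ to 3′ toward the gene.
Dusp6 promoter window (chr10:99262981-99263230, + strand): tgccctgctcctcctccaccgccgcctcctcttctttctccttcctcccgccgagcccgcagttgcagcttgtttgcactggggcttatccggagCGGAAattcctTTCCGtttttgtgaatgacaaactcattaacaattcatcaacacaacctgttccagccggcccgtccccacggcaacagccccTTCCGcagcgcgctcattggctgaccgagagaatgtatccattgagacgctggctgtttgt
Spred1 promoter window (chr2:117120821-117121070, + strand): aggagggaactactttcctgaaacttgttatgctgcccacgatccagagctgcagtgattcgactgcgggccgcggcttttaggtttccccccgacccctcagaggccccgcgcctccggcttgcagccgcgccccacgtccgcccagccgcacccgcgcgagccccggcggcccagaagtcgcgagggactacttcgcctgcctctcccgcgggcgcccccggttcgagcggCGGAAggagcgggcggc
Spry1 promoter window (chr3:37639697-37639946, + strand): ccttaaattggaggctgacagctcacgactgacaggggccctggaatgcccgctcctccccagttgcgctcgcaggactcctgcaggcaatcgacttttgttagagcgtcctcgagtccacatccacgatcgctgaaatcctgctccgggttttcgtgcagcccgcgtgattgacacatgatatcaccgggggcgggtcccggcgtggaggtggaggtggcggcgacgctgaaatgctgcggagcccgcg

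Over differentiation the 9 genes did not follow one course. In WT cells, taken as the mean of the WT groups of a time point (from 48 h on these hold WT–mCherry cells beside p53KO cells too), Dusp4 rose most between mES cells and 48 h, Spred1 and Il17rd rose between 48 and 72 h, Spry4 and Etv4 rose between 72 and 96 h, and 8 of 9 genes fell between 96 and 120 h. Lineage markers moved at these steps too, and their part in these courses was not tested. From 72 to 96 h 9 of 10 presomitic mesoderm and caudal progenitor markers were higher and 1 lower in WT cells. From 96 to 120 h 10 of 10 were lower. At that step 8 of 8 naive pluripotency markers were higher, and of 8 somite markers 7 were higher and 1 lower. The following paragraphs give WT–emiRFP levels as mean ± SD at 0, 48, 72, 96, 120 and 144 h in that order, and steps in the mean of WT cells as log2 fold changes ± SE.

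Spry1 had 1001 ± 58.8, 1997 ± 205, 933 ± 83.8, 821 ± 14.8, 1609 ± 22.8 and 1491 ± 14.1 normalised counts in time order. It rose from 0 to 48 h (0.96 ± 0.05), fell from 48 to 72 h (-0.94 ± 0.04) and rose again from 96 to 120 h (0.94 ± 0.04), when every other member fell. Spry2 had 5854 ± 528, 3191 ± 208, 4351 ± 176, 5142 ± 130.4, 3519 ± 83.2 and 2867 ± 215 normalised counts in time order. It fell at the first step (-0.88 ± 0.04), rose to 96 h and fell after it. Spry4 had 6824 ± 693, 3153 ± 292, 1502 ± 115, 6059.6 ± 641, 1299 ± 157 and 1238 ± 177 normalised counts in time order. From 48 h on its levels were highest at 96 h, with a rise of 1.72 ± 0.07 before it and a change of -2.04 ± 0.07 after it, the largest changes of any member at those steps.

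Spred1, which binds RAS regulators at the membrane, had 4272 ± 1179, 3525 ± 339, 9135 ± 1954, 9010.1 ± 521, 5124 ± 551 and 4132 ± 752 normalised counts in time order. Its rise from 48 to 72 h was 1.36 ± 0.08 and the level at 96 h did not differ detectably from that at 72 h (-0.06 ± 0.08, adjusted p = 0.54). Il17rd had 3726 ± 894, 3809 ± 159.7, 10880.1 ± 907, 20665 ± 1099, 9949 ± 1125 and 4927 ± 508 normalised counts in time order. It rose at 2 steps, by 1.38 ± 0.06 and 1.00 ± 0.06, and then changed by -0.84 ± 0.06 and -1.18 ± 0.06.

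Dusp4 had 875 ± 90.1, 6317 ± 115, 4662 ± 158, 8996 ± 754, 4429 ± 455 and 3508 ± 355 normalised counts in time order. The rise from 0 to 48 h, 2.77 ± 0.07, was the largest of any member at any step. Dusp6 had 2675 ± 398, 5529.8 ± 556, 6069 ± 169, 9783 ± 1261, 6862 ± 414 and 4613 ± 311 normalised counts in time order. It rose from 0 to 48 h (1.09 ± 0.06) and from 72 to 96 h (0.62 ± 0.05), and its change from 48 to 72 h was 0.11 ± 0.05, adjusted p = 0.07, or 0.0089 with the replicate number as a block, where 69.4% of all genes passed. Both phosphatases fell at the last 2 steps.

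Etv4 had 4398 ± 454, 5293 ± 291, 5451 ± 326, 12632 ± 259, 6167 ± 179 and 3660.2 ± 252 normalised counts in time order. It rose to 96 h (1.11 ± 0.04) and fell at each of the next 2 steps, -0.90 ± 0.04 and -1.11 ± 0.04. Etv5 had 30446 ± 2466, 33986 ± 559, 20648 ± 765, 18597 ± 710.0, 17288 ± 851 and 18309 ± 2017 normalised counts in time order. Its largest step was the fall from 48 to 72 h, -0.63 ± 0.04, and it fell at each later step in the mean of WT cells, the last of them by 0.14 on the log2 scale, a call that was lost without replicate 1 or without replicate 2, while the WT–emiRFP mean was the higher one at 144 h. The 2 PEA3 factors therefore had their highest WT–emiRFP means at different times, Etv4 at 96 h and Etv5 at 48 h.

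In counts of members past the threshold of an adjusted p of 0.05, WT cells had 8 of 9 from 0 to 48 h (5 higher, 3 lower), where 70.3% of all genes passed, and 7 from 48 to 72 h (3 higher, 4 lower), where 66.9% passed. They had 8 from 72 to 96 h (6 higher, 2 lower) beside 58.6% of all genes, 9 from 96 to 120 h (1 higher, 8 lower) beside 56.8%, and 8 from 120 to 144 h (all lower) beside 55.4%. With the block Il17rd also passed from 0 to 48 h (adjusted p = 0.025), where 72.3% of all genes did. From 96 to 120 h the median member changed by -0.73 and the median of all genes by 0.00. In p53KO–emiRFP cells the counts were 7 (5 higher, 2 lower) beside 59.5% from 0 to 48 h, 7 (3 higher, 4 lower) beside 46.4% from 48 to 72 h and 7 (5 higher, 2 lower) beside 44.5% from 72 to 96 h. They were 8 (2 higher, 6 lower) beside 34.9% from 96 to 120 h, or 5 without replicate 2, and 7 (all lower) beside 22.7% from 120 to 144 h. With the block Spred1 passed as lower from 0 to 48 h (adjusted p = 0.013, beside 62.5% of all genes) and Spry1 as higher from 120 to 144 h (adjusted p = 0.02, beside 27.2%).

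From 96 to 120 h p53KO–emiRFP cells kept 2 members near their peak. Il17rd went from 21174, 21731 and 21555 to 21437, 17595 and 20308 normalised counts (-0.12 ± 0.11, adjusted p = 0.43), while in WT cells it fell by 0.84 on the log2 scale. Dusp6 went from 7447, 8646 and 8785 to 8962, 10473 and 10049.8 and rose (0.25 ± 0.09, adjusted p = 0.034, a call that was lost without replicate 2), while in WT cells it fell by 0.30 on the log2 scale. The difference between the 2 courses at this single step was not tested as such.

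The comparison of p53KO–emiRFP with WT–emiRFP cells addresses loss of p53. From 48 h on its p53KO–emiRFP cells come from WT + p53KO and its WT–emiRFP cells from WT + WT gastruloids, so genotype and the make-up of the gastruloid cannot be told apart in it. At 120 h all 9 members differed, where 51.0% of all genes tested did. The inhibitors Spry2, Spry4, Spred1 and Il17rd, both phosphatases and Etv4 were higher in p53KO–emiRFP cells, and Spry1 and Etv5 were lower. The median of the 9 log2 fold changes was 0.52 and that of all genes 0.05. The values of every library are given for the genes with the largest changes.

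Spry4 had 2287, 3348 and 2452 normalised counts in p53KO–emiRFP libraries at 120 h and 1153, 1279 and 1464 in WT–emiRFP libraries. The p53KO libraries were all above the WT ones, by 1.05 ± 0.14, adjusted p = 2.9e-05. Il17rd had 21437, 17595 and 20308 against 10392, 8669 and 10785, a difference of 0.99 ± 0.10, adjusted p = 1.5e-06. Every p53KO library was again above every WT library, and the level was 1.99-fold.

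Dusp4 had 7266, 7618 and 7439 in p53KO–emiRFP and 4433, 3973 and 4883 in WT–emiRFP libraries at 120 h (0.75 ± 0.07, adjusted p = 7.6e-07). Dusp6 had 8962, 10473 and 10049.8 against 6852, 6453 and 7281 (0.52 ± 0.07, adjusted p = 1.6e-05). Neither phosphatase showed overlap between the groups. Spry2 and Spred1 changed less, by 0.34 ± 0.05, adjusted p = 4.1e-05 for Spry2 and 0.30 ± 0.11, adjusted p = 0.032 for Spred1, and Spred1 was not past the threshold without replicate 1.

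The 2 PEA3 factors went opposite ways. Etv4 had 11209, 10870.0 and 9922 in p53KO–emiRFP and 6279, 5960.3 and 6259.9 in WT–emiRFP libraries at 120 h (0.79 ± 0.07, adjusted p = 8.7e-07). Etv5 had 11877, 11744 and 11573 against 16677, 16927 and 18260.1 (-0.56 ± 0.05, adjusted p = 3.8e-07). Spry1 was the other member below WT, with 1299.8, 1305 and 1245 against 1615, 1629 and 1584 (-0.33 ± 0.05, adjusted p = 0.00017). For all 9 genes the 2 groups of libraries did not overlap at 120 h, and the share of all genes without overlap was not counted.

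At 144 h 7 of 9 members differed (5 higher, 2 lower), where 65.3% of all genes did. Il17rd remained higher, with 8896, 9709 and 10130.0 against 4843, 4466 and 5471 normalised counts (0.96 ± 0.10, adjusted p = 1.5e-06). Dusp6 had 7100.5, 7011 and 6727 against 4467, 4401 and 4970.4 (0.59 ± 0.07, adjusted p = 5.5e-06), and Etv4 5864, 5549 and 5666 against 3838, 3371 and 3771 (0.64 ± 0.07, adjusted p = 2.1e-06). Dusp4 and Spred1 were also higher, by 0.36 ± 0.11, adjusted p = 0.012 and by 0.38 ± 0.15, adjusted p = 0.033, and Spred1 was not past the threshold without replicate 1 or without replicate 2. Spry2 (0.19 ± 0.08, adjusted p = 0.058) passed with the replicate number as a block (adjusted p = 0.01, beside 70.5% of all genes).

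Etv5 and Spry4 were lower in p53KO–emiRFP cells at 144 h. Etv5 had 7138, 7726 and 8502 against 17462, 16854 and 20612 (-1.23 ± 0.10, adjusted p = 1.1e-07), 0.43 of the WT level. Spry4 had 728, 675 and 818 against 1251, 1055 and 1408 (-0.74 ± 0.12, adjusted p = 0.00012), the opposite of its direction at 120 h. The change of the Spry4 difference between the 2 time points was -1.80 ± 0.17 (adjusted p = 1.2e-11). Spry1 had 1553, 1393 and 1423 against 1478, 1490.2 and 1506, which overlap (-0.03 ± 0.07, adjusted p = 0.71).

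Before 120 h fewer members passed. In mES cells 1 of 9 members passed, Dusp4, where 6.13% of all genes did. Dusp4 had 1281, 1240.0 and 1654 in p53KO–emiRFP and 781, 884 and 961 in WT–emiRFP mES cells (0.67 ± 0.12, adjusted p = 0.0054), and without replicate 2 it did not pass. At 48 h 4 members were higher, beside 22.0% of all genes, and the count was 7 with the replicate number as a block, where 41.1% of all genes passed. Spry4 led them with 4897, 5646 and 5904 against 2859.7, 3443 and 3157 (0.80 ± 0.09, adjusted p = 1.4e-05). Spry2, Etv4 and Dusp4 followed with 0.38 ± 0.08, 0.31 ± 0.07 and 0.29 ± 0.06, and without replicate 2 none of these 3 passed. The block added Dusp6 (0.20 ± 0.10, blocked adjusted p = 9e-06) and Spred1 (0.18 ± 0.09, blocked adjusted p = 0.00071), both higher, and Etv5 (-0.11 ± 0.04, blocked adjusted p = 0.002), which was lower.

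At 72 h 3 members were higher, beside 29.1% of all genes. Spry4 had 2359, 2508 and 2665 against 1372, 1587 and 1548 (0.74 ± 0.07, adjusted p = 1e-06). Dusp4 and Etv4 differed by 0.26 ± 0.06 and 0.20 ± 0.06, and both lost their call without replicate 1, Etv4 also without replicate 2. Spry2 (0.15 ± 0.06) passed with the block (adjusted p = 0.013, beside 39.0% of all genes) and in DESeq2 (adjusted p = 0.048). At 96 h Dusp4 (0.41 ± 0.07) and Etv4 (0.22 ± 0.06) were higher and Spry1 (-0.24 ± 0.07) lower, beside 23.3% of all genes, and without replicate 1 or without replicate 3 only Dusp4 passed. The block took the count to 6 beside 38.6% of all genes, with Spry4 higher (0.14 ± 0.10, blocked adjusted p = 0.0051) and Dusp6 and Etv5 lower (-0.24 ± 0.10 and -0.14 ± 0.05, blocked adjusted p = 2.8e-05 and 0.0036). Dusp4 was the member past the threshold in p53KO–emiRFP cells at all 6 time points, although not at 0 h without replicate 2, nor at 48 h without it, nor at 72 h without replicate 1.

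**Figure D2:**
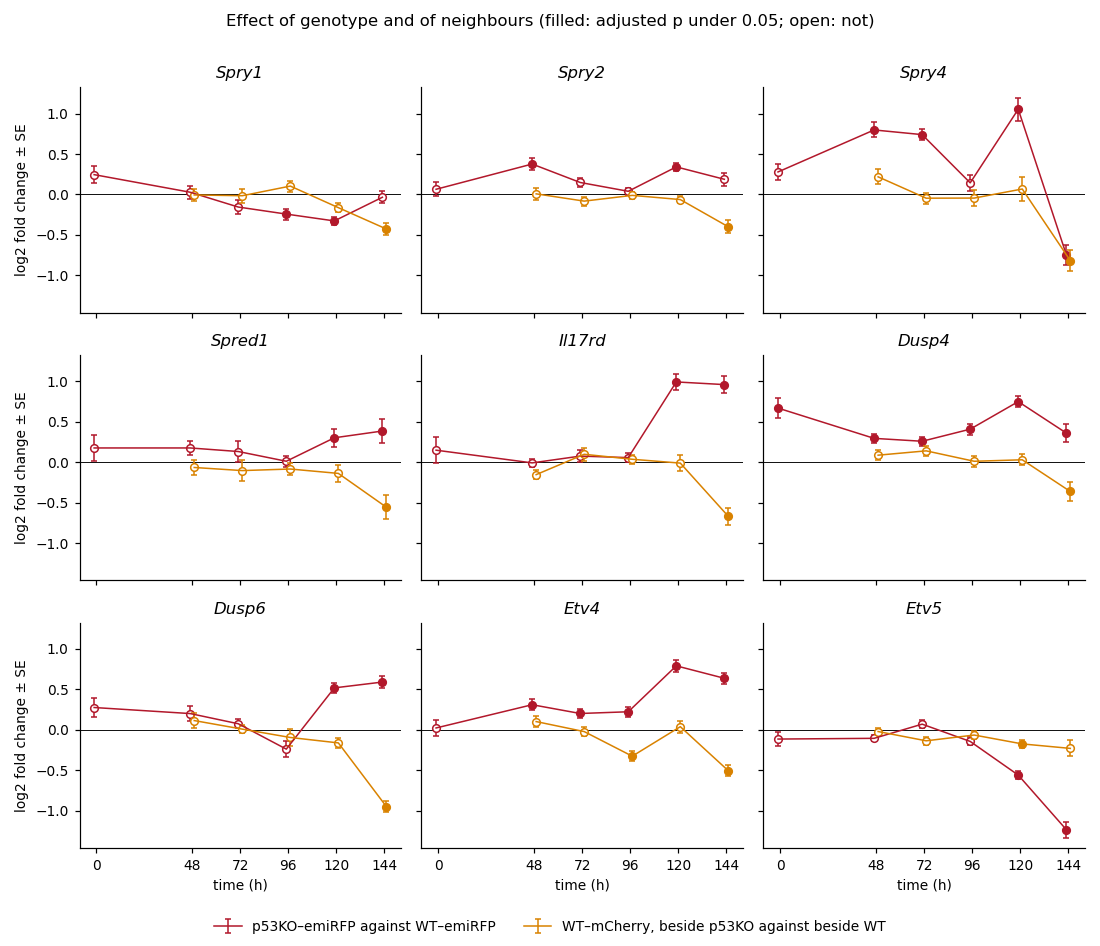
Log2 fold change ± SE (vertical axis) against time in h, for p53KO–emiRFP against WT–emiRFP cells (red) and for WT–mCherry cells with p53KO over those with WT neighbours (orange), with filled points where the adjusted p was under 0.05. Il17rd, Dusp6 and Etv4 separate at 120 and 144 h into higher values in p53KO cells and, at 144 h, lower values in WT neighbours, while Spry4 ends below 0 in both.

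In bulk samples fewer cells of a type and less RNA per cell cannot be told apart, and the populations differed in lineage markers. At 120 h the 10 presomitic mesoderm and caudal progenitor markers summed to 82472 to 87869.8 normalised counts in p53KO–emiRFP libraries and 13973 to 18137 in WT–emiRFP libraries, with 10 of 10 higher (Fgf8, which is also in the list of FGF ligands, is one of them). The 8 naive pluripotency markers summed to 10940.1 to 11625 against 60613 to 70079, with 8 of 8 lower. At 144 h the same sums were 23896 to 24763 against 2110.0 to 2708 and 13266 to 20207 against 80039 to 93355. Somite markers summed to 24351 to 33004 against 4434 to 5879.9 at 144 h, with 7 of 8 higher and 0 lower. Neural markers summed to 18973 to 21022 against 4773 to 5821 at 144 h, with 4 of 7 higher and 0 lower. Haematoendothelial markers summed to 2352 to 2814 against 7564 to 7729 at 144 h, with 4 of 8 lower and 1 higher. Endoderm markers summed to 5442 to 7455 against 11868 to 14317 at 144 h, with 3 of 6 lower and 1 higher. At 120 h these sums were 3245 to 3546 against 6151 to 6323, with 4 of 8 lower and 1 higher, and 6188 to 6814 against 8139 to 10331, with 3 of 6 lower and 1 higher. Formative and primed pluripotency markers, Fgf5 among them, summed to 11524 to 12764 against 10125 to 11722 at 120 h, with 1 of 5 higher and 2 lower, and to 8867 to 10168 against 10333 to 12271 at 144 h, with 1 higher and 4 lower. No marker of these 7 lists was at 0 in all libraries of a group at these times. Before 120 h naive markers were lower in 8 of 8 at 96 h, 5 of 8 at 72 h and 4 of 8 at 0 h. At 48 h 2 of them were higher and 1 lower. Formative and primed markers were higher in 4 of 5 at 0 h. At 96 h somite markers were lower in 3 of 7, and of 7 haematoendothelial markers 3 were lower and 2 higher. The part of these markers in the differences of the members was not tested.

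The comparison of WT–mCherry cells by neighbour asks what WT cells do when they share a gastruloid with p53KO cells. At 144 h 8 of 9 members were lower beside p53KO cells, where 25.5% of all genes tested changed in either direction (1955 higher and 2999 lower). The median member was at -0.51 and the median gene at -0.03. Only Etv5 did not pass (-0.23 ± 0.10, adjusted p = 0.1), and with the replicate number as a block it did (adjusted p = 0.00064), where 37.2% of all genes passed.

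Dusp6 had the largest difference. It had 3080.0, 2845 and 3098 normalised counts beside p53KO cells and 5730.2, 5273 and 6423 beside WT cells (-0.95 ± 0.07, adjusted p = 6.5e-06), 0.52 of the level beside WT cells. Spry4 had 524, 564 and 628 against 941, 910.1 and 1181 (-0.82 ± 0.13, adjusted p = 0.00064), and Il17rd 3668, 3868 and 4280.4 against 5966, 5540.5 and 7308 (-0.67 ± 0.10, adjusted p = 0.00057). For these 3 genes all 3 libraries beside p53KO cells were below all 3 beside WT cells.

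The other feedback inhibitors were lower by smaller amounts. Spred1 had 2999.9, 2993 and 3874 against 4527, 4095 and 5912 (-0.56 ± 0.15, adjusted p = 0.015) and was not past the threshold without replicate 1 or without replicate 2. Spry1 had 1337, 1355 and 1137 against 1647, 1673 and 1824 (-0.43 ± 0.07, adjusted p = 0.0014), and Spry2 2449, 2227 and 2451 against 2954, 2884 and 3569 (-0.40 ± 0.08, adjusted p = 0.0037). These 3 genes too had no overlap between the groups.

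Dusp4 had 3396, 2663 and 3337 beside p53KO cells and 3986, 3409.7 and 4694 beside WT cells (-0.36 ± 0.11, adjusted p = 0.031), and it did not pass in the fit of the compared groups alone, without replicate 1 or without replicate 3. Etv4 had 2389, 1975 and 2234 against 3103, 3023 and 3248 (-0.51 ± 0.07, adjusted p = 0.00033). Etv5, whose level is the highest per kb, had 11921, 11541 and 14147 against 13937, 13901 and 16264, with 1 library beside p53KO cells inside the range beside WT cells. In all 27 same-numbered pairs of the 9 genes the library beside p53KO cells was the lower one. These are 9 genes in the same 3 pairs of libraries, so they are not 27 independent observations. The share of all genes with such pairs, or without overlap between the groups, was not counted.

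**Figure D3:**
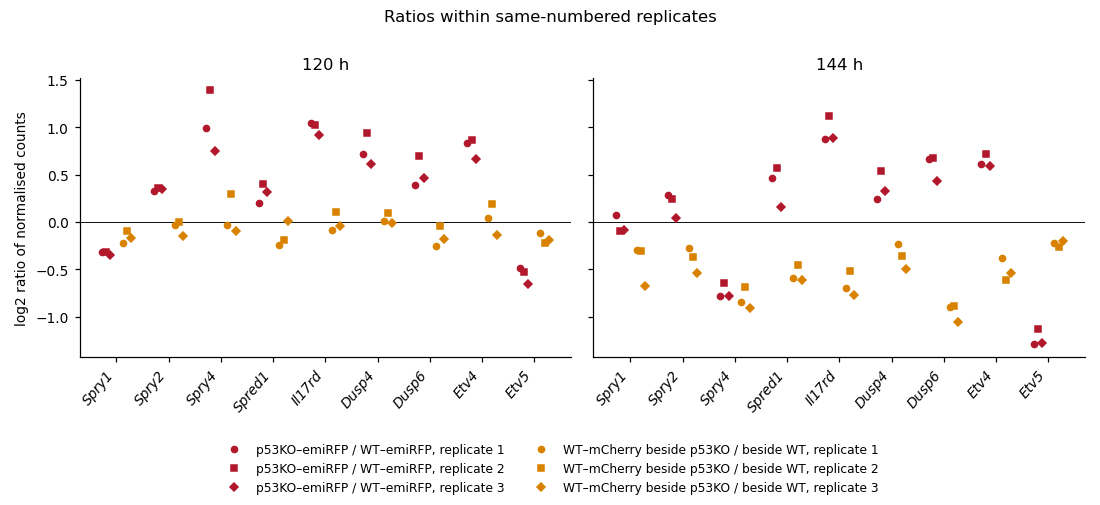
Log2 ratio of normalised counts (vertical axis) within each same-numbered pair of libraries at 120 h (left) and 144 h (right), for p53KO–emiRFP over WT–emiRFP (red) and WT–mCherry beside p53KO over beside WT (orange), with a marker shape for each replicate. At 144 h all 27 orange points lie below 0, from -0.20 to -1.05, while the red points of Dusp6, Etv4 and Il17rd lie above it.

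At 144 h these WT–mCherry libraries also held emiRFP RNA as gauged by H2bc14, at the shares given above. WT–mCherry gastruloid cells without emiRFP cells were not sequenced, so their own H2bc14 level is not known. With the H2bc14 share subtracted, the same 8 of 9 members were lower, beside 33.4% of all genes called. All 8 had higher means at 144 h in p53KO–emiRFP cells than in these WT–mCherry cells. Subtraction therefore lowers their levels beside p53KO cells by construction, and the result is no separate support for these calls. The neural markers summed to 5805 to 9006 beside p53KO cells and 9584 to 13752 beside WT cells at 144 h, with 6 of 7 lower. Presomitic mesoderm and caudal progenitor markers summed to 4689.9 to 6005 against 3686 to 4219.8, with 8 of 10 higher and 1 lower, and naive pluripotency markers to 61992 to 71882 against 57155 to 63314, with 0 of 8 past the threshold in edgeR, 3 at an unadjusted p under 0.05, and 2 higher in DESeq2. Haematoendothelial markers were lower in 4 of 8, endoderm markers higher in 2 of 6, formative and primed pluripotency markers lower in 3 of 5, and of 8 somite markers 1 was higher and 2 lower. With the block 5 naive and 6 endoderm markers were higher, and of the somite markers 2 were higher and 4 lower. These marker values include the emiRFP RNA. With it subtracted, 2 of 10 presomitic mesoderm and caudal progenitor markers were higher and 2 lower, 3 of 8 naive markers were higher, 4 of 8 somite markers and 6 of 7 neural markers were lower. Their part in the lower levels of the members was not tested.

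At earlier times at most 1 member differed by neighbour in the fit without the block. At 48 h 0 of 9 passed in edgeR, beside 0.0735% of all genes, with 2 at an unadjusted p under 0.05 and 0 in DESeq2. With the replicate number as a block 4 passed at 48 h, beside 4.91% of all genes, Spry4 (0.22 ± 0.09, blocked adjusted p = 0.00037), Dusp6 (0.11 ± 0.10, 0.037) and Etv4 (0.10 ± 0.07, 0.038) higher and Il17rd (-0.15 ± 0.05, 0.0046) lower. At 72 h 0 of 9 passed, beside 0.559% of all genes, with 2 at an unadjusted p under 0.05 and 0 in DESeq2 or with the block (2.27% of all genes). At 96 h Etv4 was lower, with 10888, 9546 and 10131 beside p53KO cells and 12586, 12682 and 13044 beside WT cells (-0.33 ± 0.06, adjusted p = 0.017), where 3.93% of all genes passed, and the call was lost without any 1 of the 3 replicates. At 120 h Etv5 was lower, with 15427, 14982 and 15049.7 against 16685, 17468 and 17141 (-0.17 ± 0.05, adjusted p = 0.049), where 5.95% passed. That call was lost with TMM scaling, without the filter, in the fit of the compared groups alone, after subtraction of emiRFP RNA and without any 1 replicate. DESeq2 called Etv5 and Spry1 at 120 h. The block called 4 members, all lower, beside 20.3% of all genes, adding Spry1 (-0.16 ± 0.05, blocked adjusted p = 0.018), Spred1 (-0.14 ± 0.11, 0.049) and Dusp6 (-0.16 ± 0.07, 0.041), although 1 pair of same-numbered libraries there had an r of 0.072. In 20 of 27 same-numbered pairs at 120 h the library beside p53KO cells was the lower one, with no such count over all genes. Of 8 naive pluripotency markers 2 were lower beside p53KO cells at 48 h in edgeR and 6 with the block. At 120 h 2 were lower in edgeR, 5 in DESeq2 and 7 with the block. Haematoendothelial markers were lower in 3 of 8 and higher in 1 there. The part of these markers in the members' differences was not tested.

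The 2 WT clones of WT + WT gastruloids were compared to show how far 2 clones of 1 genotype differ. This comparison shares the WT–emiRFP libraries with the p53KO comparison and the WT–mCherry libraries with the neighbour comparison. In edgeR 0 of 9 members passed in mES cells, beside 11.1% of all genes, with 0 at an unadjusted p under 0.05 and 0 in DESeq2. At 48 h 0 passed beside 8.89% of all genes (1 at an unadjusted p under 0.05, 0 in DESeq2, and 4 with the block), at 96 h 0 beside 2.15% (2, 0 and 3) and at 120 h 0 beside 1.24% (3, 0 and 4). With the block 28.8%, 16.0% and 10.8% of all genes passed at those 3 times, and the differences of members that it called lay between -0.26 and 0.22.

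At 72 h Etv5 was lower in WT–emiRFP cells, with 20009, 21495 and 20439.8 against 24665, 24392 and 24017 (-0.24 ± 0.05, adjusted p = 0.0076), beside 7.64% of all genes, and it did not pass in the fit of the compared groups or without replicate 1 or without replicate 2. The block added Spry4 and Il17rd at 72 h, beside 16.2% of all genes, and DESeq2 Spry4. At 144 h 4 members differed between the clones, beside 23.8% of all genes. Dusp6 (-0.33 ± 0.07) and Il17rd (-0.35 ± 0.10) were lower and Etv4 (0.23 ± 0.07) and Etv5 (0.32 ± 0.10) higher in WT–emiRFP cells. With the block the count was 8 beside 33.9% of all genes, and without replicate 1 it was 0. The largest clone difference of a member at 144 h, -0.35, was smaller in size than the p53KO difference of Il17rd, 0.96, and in the other direction. The p53KO differences of Dusp4 and Spred1 at 144 h were close to that clone difference in size. So were the neighbour differences of Dusp4 and Spry2 at that time. The comparisons share libraries and the differences between them were not tested.

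Whether an effect changed over time was tested in 1 fit of all libraries. The p53KO difference at 120 h minus that at 48 h passed for 5 of 9 members, where 36.6% of all genes passed. It was largest for Il17rd (1.00 ± 0.15), whose p53KO difference was -0.01 ± 0.05 at 48 h, and the block added Dusp6 (adjusted p = 0.0057, beside 41.0% of all genes). The difference at 144 h minus that at 120 h passed for 4 of 9 beside 16.9% of all genes, and for 2 without replicate 1 or without replicate 2, Spry4 and Etv5. The neighbour difference at 120 h minus that at 48 h passed for 0 of 9 in edgeR beside 1.06% of all genes, with 1 at an unadjusted p under 0.05 and no fit in DESeq2. At 144 h minus 120 h it passed for 6 of 9, all toward lower levels at 144 h, beside 7.62% of all genes. Dusp6 (-0.79 ± 0.13) and Spry4 (-0.88 ± 0.18) changed most, and without replicate 2 these 2 were the only members left. Without replicate 3, 3 members passed. The block added Spry1 and Spred1 (adjusted p = 0.034 and 0.045), where 12.2% of all genes passed.

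The rest of the pathway was read from lists of its parts, as counts over the genes tested. The genes named are the 3 with the largest p53KO difference at 120 or 144 h, and others where 5 or fewer genes of a list passed in a direction, which were chosen after their values were seen. Of 11 FGF ligands, 8 were higher and 2 lower in p53KO–emiRFP cells at 120 h, with a median of 1.41, and 8 higher and 3 lower at 144 h (median 1.98), against a median of 0.05 and 0.01 over all genes. Of all genes 51.0% and 65.3% passed at these times in the p53KO comparison (61.7% and 70.5% with the block), in either direction. In the neighbour comparison 5.95% and 25.5% passed (20.3% and 37.2% with the block, 5.17% and 33.4% after subtraction of emiRFP RNA), and each list below is set beside these shares. Fgf8, the main ligand of the tail bud, had 4281 ± 489.7 against 695 ± 64.6 normalised counts at 120 h (2.62 ± 0.15). Fgf3, another tail bud ligand, had 1563 ± 110.4 against 129 ± 27.8 (3.60 ± 0.19) and Fgf9, which was also higher, 246 ± 31.3 against 37.7 ± 7.74. At 144 h Fgf18 had 658 ± 143 against 33.2 ± 7.92 (4.31 ± 0.32), and Fgf9 79.0 ± 13.5 against 6.14 ± 2.98 (3.63 ± 0.32), while Fgf1 was lower, with 19.7 ± 6.25 against 176 ± 30.9 (-3.16 ± 0.24), as were Fgf4 and Fgf5, both of them the lower ligands at 120 h too. Fgf5 is also in the list of formative and primed pluripotency markers, which was lower in 4 of 5 at 144 h.

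In WT–mCherry cells 4 of 11 ligands (Fgf3, Fgf8, Fgf9 and Fgf17) were higher and 1 (Fgf5) lower beside p53KO cells at 120 h, and 7 were higher and 1 lower with the block. Fgf8 was at 2208 ± 499 against 1178 ± 145 there (0.91 ± 0.14) and Fgf3 at 563 ± 118 against 209 ± 45.0 (1.43 ± 0.18), in libraries with 7.46%, 3.01% and 6.66% emiRFP RNA by H2bc14. Presomitic mesoderm and caudal progenitor markers, Fgf8 among them, summed to 40651 to 46715 against 21288 to 26807 in the same libraries, with 9 of 10 higher, and their part in the ligand levels was not tested. At 144 h, when 8 members were lower, 2 ligands (Fgf17 and Fgf18) were higher and 2 (Fgf5 and Fgf10) lower, with a median of -0.01. These libraries held 16.9%, 2.39% and 9.23% emiRFP RNA by H2bc14, and the higher calls did not outlast its subtraction. Fgf18 (0.94 ± 0.32) was then at -0.96 ± 0.55, adjusted p = 0.21, and Fgf17 (0.45 ± 0.10) at -0.40 ± 0.21, adjusted p = 0.17. After subtraction Fgf5, Fgf10, Fgf13, Fgf15 and Fgf8 were lower at 144 h, with Fgf8 at -0.60 ± 0.13, adjusted p = 0.0036. At 120 h the counts were the same after subtraction, with Fgf8 at 0.81 ± 0.15, adjusted p = 0.0085 and Fgf3 at 1.26 ± 0.20, adjusted p = 0.0027.

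Of the 4 FGF receptors, Fgfr2 (-0.72 ± 0.09) and Fgfr4 (-1.55 ± 0.33) were lower and Fgfr3 (0.57 ± 0.19) and Fgfr1 (0.38 ± 0.06) higher in p53KO–emiRFP cells at 120 h. At 144 h Fgfr1 (0.52 ± 0.07) and Fgfr2 (0.31 ± 0.06) were higher and Fgfr4 (-1.10 ± 0.23) lower. Beside p53KO cells Fgfr2 was lower in WT–mCherry cells at 120 h (-0.33 ± 0.09) and at 144 h (-0.42 ± 0.06), with 3454 ± 42.2 against 4628 ± 139.9 normalised counts at 144 h. With the block Fgfr4 was higher at 120 h too. The call of Fgfr2 at 120 h was lost when emiRFP RNA was subtracted (-0.31 ± 0.09, adjusted p = 0.064), and Fgfr1 was then lower at 144 h (-0.21 ± 0.07, adjusted p = 0.026). Fgfr1 also passed as lower at 144 h with the block and no subtraction (blocked adjusted p = 0.028). Without block or subtraction Fgfr3 was lower (-0.85 ± 0.15) and Fgfr4 higher at 144 h (1.20 ± 0.22).

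In the p53KO comparison the share of cascade genes that passed was no larger than that of all genes at either time without the block. Of 21 RAS–ERK cascade genes 4 were higher (Nf1, Sos2, Ptpn11 and Nras) and 4 lower (Ksr1, Gab1, Sos1 and Map2k1) in p53KO–emiRFP cells at 120 h (8 and 6 with the block) and 7 higher and 6 lower at 144 h. The RAS GTPase activator Nf1 was higher at both times (0.60 ± 0.12 and 0.86 ± 0.09) and the adaptor Gab1 lower (-0.78 ± 0.07 and -1.11 ± 0.08). The scaffold Ksr1 was lower at 120 h (-0.85 ± 0.10), and the RAS exchange factor Sos2 higher at 144 h (1.05 ± 0.07). In WT–mCherry cells 0 of 21 differed by neighbour at 120 h in edgeR (2 at an unadjusted p under 0.05, 0 in DESeq2), and with the block 1 was higher and 3 lower. At 144 h Ksr1 was higher beside p53KO cells, and Ptpn11, Rasa1, Nras and Grb2 were among the lower ones, with log2 fold changes from -0.27 to 0.25. After subtraction of emiRFP RNA 2 were higher and 6 lower at 144 h.

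Of 13 other negative regulators of ERK, 7 were higher and 3 lower in p53KO–emiRFP cells at 120 h, and 9 higher and 2 lower at 144 h. Spred3 was higher at both times, with 2606 ± 176 against 1153 ± 169 at 120 h (1.18 ± 0.11) and 1.59 ± 0.14 at 144 h. The phosphatase Dusp9 was lower at both, with 1697 ± 168 against 10368 ± 1044 at 120 h (-2.61 ± 0.12) and -2.49 ± 0.12 at 144 h. Dusp1, another phosphatase of MAP kinases, was lower at 120 h, with 855 ± 99.2 against 1860.0 ± 344 (-1.12 ± 0.18), and Spry3, a Sprouty gene with few counts, was higher at 144 h, with 46.6 ± 4.27 against 15.4 ± 2.87 (1.59 ± 0.23). In WT–mCherry cells beside p53KO cells Dusp9 (-0.66 ± 0.11) and Errfi1 (-0.40 ± 0.05) were lower at 120 h, and at 144 h Spred2, Rasa3, Errfi1 and Spred3 were lower and none higher, Spred3 with 604 ± 127 against 1014 ± 137 (-0.74 ± 0.14). With emiRFP RNA subtracted Dusp1 passed there as higher (0.32 ± 0.11, adjusted p = 0.048).

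Of the other ERK-induced genes 4 of 13 were higher (Egr3, Ccnd1, Etv1 and Srf) and 2 lower (Junb and Phlda1) in p53KO–emiRFP cells at 120 h (4 and 5 with the block), and 3 of 12 higher and 2 lower (Ier2 and Ier3) at 144 h. Ccnd1, a cyclin of the G1 phase, was higher at both times and had 10363 ± 207 against 2939.8 ± 233 at 144 h (1.82 ± 0.09). Phlda1 (0.96 ± 0.15) and Myc (0.74 ± 0.11) were higher at 144 h. In WT–mCherry cells beside p53KO cells 0 of 13 passed at 120 h in edgeR (3 at an unadjusted p under 0.05, 0 in DESeq2), or 1 higher and 4 lower with the block, and 4 of 12 were lower at 144 h and none higher, and with the block 4 were lower and 3 higher. Myc had 1306 ± 188 against 2402 ± 299.7 there (-0.88 ± 0.11), Phlda1 204 ± 39.6 against 312 ± 29.7 (-0.62 ± 0.15) and Ccnd1 4585 ± 682 against 5966 ± 224 (-0.38 ± 0.09). Etv1, the remaining PEA3 factor, was the fourth (-1.06 ± 0.18). The median log2 fold change of this list was 0.08, against -0.03 over all genes.

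**Figure D4:**
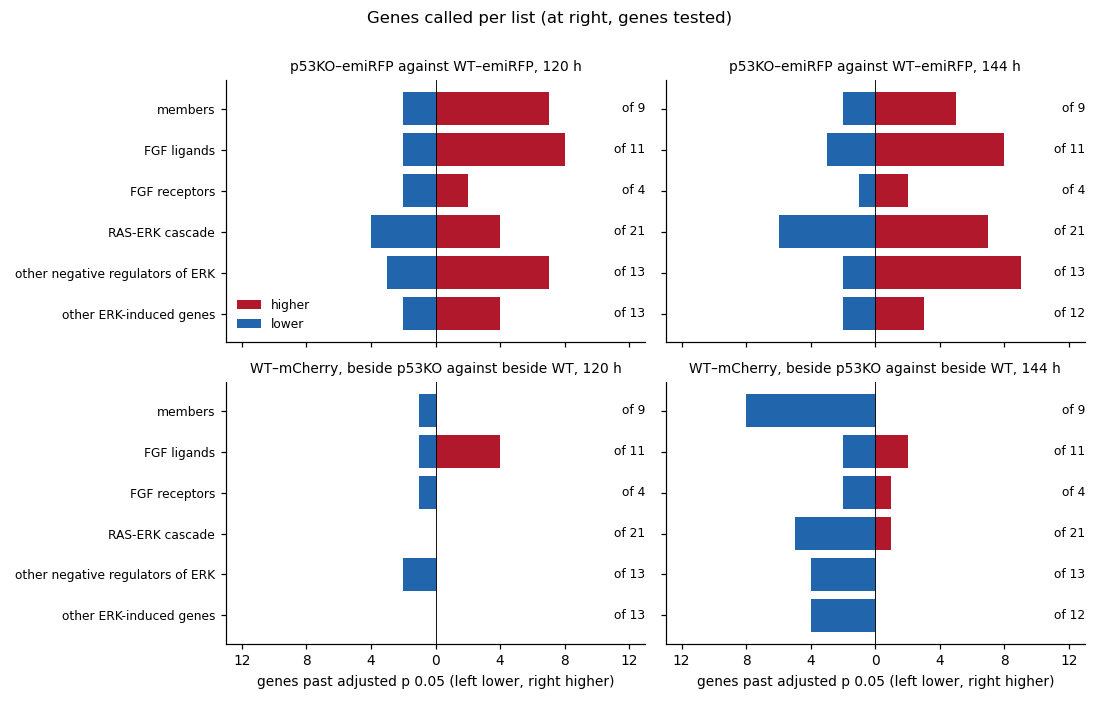
Number of genes past an adjusted p of 0.05 (horizontal axis, lower to the left and higher to the right) among the 9 members and 5 lists of pathway genes, for p53KO–emiRFP against WT–emiRFP (top) and WT–mCherry by neighbour (bottom) at 120 and 144 h. Beside p53KO cells at 144 h 8 of 9 members are lower and none higher, and of 21 cascade genes 5 are lower and 1 higher.

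Over the 23 group means the members did not form one profile. Pearson's r of log2(normalised count + 1), given as a description over groups that share clones and experiments, was highest for Dusp4 with Dusp6 (0.88), Dusp6 with Il17rd (0.82), Spred1 with Il17rd (0.82) and Spry2 with Spry4 (0.79). It was lowest for Spry1 with Spred1 (-0.78) and for Spry1 with Spry2 (-0.69). Among the 14077 genes with a mean of at least 50 normalised counts, Etv5 was most like Park7 (0.97), Gm14124 and Mrps2, and Dusp6 most like Tstd2 (0.97), Arl16 and Cand2. Il17rd was most like Stx18, Selenov and Arid3b, Dusp4 most like Zfp467, Vav2 and Lratd2, and Spred1 most like Nt5e, Crot and Tmem185a. Spry4 was most like Kbtbd8 (0.95), Pcolce2 and Aven, and Etv4 most like Ext1 (0.92), Pdzd11 and Chrnb2. Spry2 was most like Foxred1 (0.93), Zdhhc4 and Gatb, and Spry1 most like Ccdc138 (0.91), Fzd7 and Gadd45g. None of the nearest genes was another member.

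**Figure D5:**
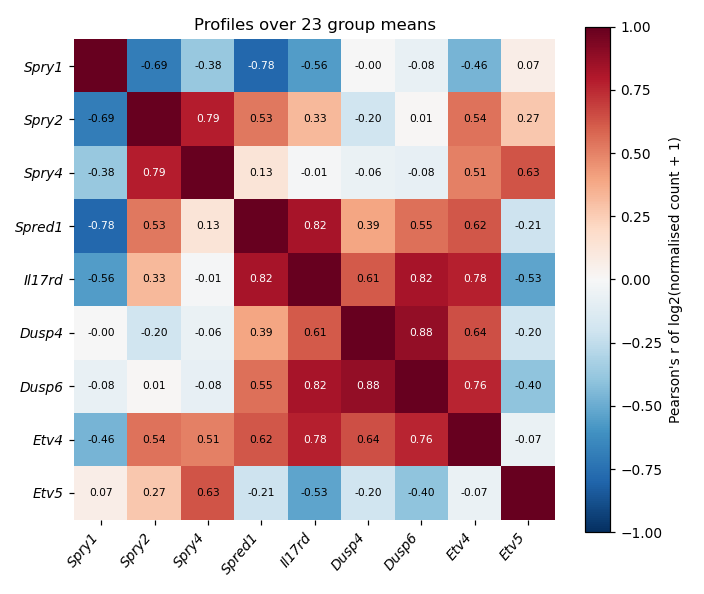
Pearson's r between the members' profiles over 23 group means (axes: the 9 genes; colour and number: r of log2 normalised counts). Spry1 is the row with values below 0 toward Spry2, Spry4, Spred1, Il17rd and Etv4, while Dusp4, Dusp6, Etv4 and Il17rd share values above 0.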

How the data were processed

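Poly-A RNA of 3 mES clones and of sorted gastruloid cells was sequenced in 69 libraries. The authors trimmed reads with Trim Galore 0.6.7, aligned them to GRCm38.p6 with STAR 2.7.11b and deposited raw counts of uniquely mapped reads per gene symbol. For the analysis here counts were divided by median-of-ratios size factors, filtered with filterByExpr and tested with edgeR 4.0.16 (quasi-likelihood test, R 4.3.3, limma 3.58.1) in all groups of 1 time point, and time steps and changes of effects in 1 fit of 69 libraries. P-values were adjusted over all genes tested by Benjamini-Hochberg, with a threshold of 0.05, and an SE is the log2 fold change divided by the square root of its F value. The script was tested on simulated data.

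The members and lists were chosen with earlier results of these data known. All 9 members are named, and of each pathway list the 3 genes with the largest p53KO difference past the threshold at 120 h and at 144 h. For each member the 3 genes with the most similar profile are named, from log2(normalised count + 1) with a mean of at least 50. The study made its 3 replicates in separate experiments. Replicate numbers were taken to mark shared experiments, which the labels do not state. Same-numbered libraries deviated together, with every pair's r above 0.1 in 14 of 17 comparisons, and a fit blocked on that number is given where it changed a member's call or moved a count by over 1.5 times. P-values measure the spread between these experiments, on 2 WT clones and 1 p53KO clone. Alternatives were DESeq2 1.42.0, TMM scaling, no filter, the compared groups alone, each replicate left out, and subtraction of emiRFP RNA in WT–mCherry libraries, scaled by H2bc14. Gene positions and exon lengths come from the Gencode annotation of GRCm38 and promoters from RefSeq. Protein sequences were not used here, and 1 gene of the cascade list is not reported here by name.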

Additional observations from a re-analysis of the deposited data

Results flagged for a closer look

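The effects below differed between 2 time points by a test of the difference itself in edgeR, each as a log2 difference of 2 log2 fold changes ± SE with its Benjamini-Hochberg adjusted p over all genes. No cause was tested. Effects at different times share no library, but the 3 experiments are common to them.

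The p53KO difference at 120 h exceeded that at 48 h for Il17rd (1.00 ± 0.15, adjusted p = 3.5e-07), Etv4 (0.48 ± 0.10, adjusted p = 0.00018) and Dusp4 (0.45 ± 0.12, adjusted p = 0.0028). It was below that at 48 h for Etv5 (-0.45 ± 0.09, adjusted p = 5.1e-05) and Spry1 (-0.36 ± 0.11, adjusted p = 0.0058).

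The p53KO difference at 144 h was below that at 120 h for Spry4 (-1.80 ± 0.17, adjusted p = 1.2e-11), Etv5 (-0.67 ± 0.09, adjusted p = 9.4e-08) and Dusp4 (-0.39 ± 0.13, adjusted p = 0.023). It was above that at 120 h for Spry1 (0.29 ± 0.11, adjusted p = 0.047).

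The neighbour difference of WT–mCherry cells at 144 h was below that at 120 h for 6 members. These were Spry4 (-0.88 ± 0.18, adjusted p = 0.00055), Dusp6 (-0.79 ± 0.13, adjusted p = 5e-05), Il17rd (-0.66 ± 0.15, adjusted p = 0.0031), Etv4 (-0.55 ± 0.11, adjusted p = 0.00039), Dusp4 (-0.39 ± 0.13, adjusted p = 0.041) and Spry2 (-0.34 ± 0.10, adjusted p = 0.019).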

How the results depend on the processing

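No member changed direction under any alternative in a comparison that it passed. Over 279 comparisons of a single member, leaving out replicate 1, 2 or 3, which leaves 2 libraries a group, ended 25, 24 and 10 calls. It added 2, 1 and 3. The replicate block added 40 and ended none. TMM scaling ended 1 call and added 4, DESeq2 added 6, no filter ended 2 and added 17, and the compared groups alone ended 3 and added 6. The changes of effects were not fitted with DESeq2, without the filter or in the compared groups alone.

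Counts of members past the threshold moved by over 1.5 times as follows, and the cause was not tested. For p53KO–emiRFP against WT–emiRFP, 1 member passed at 0 h and 0 to 1 with a replicate left out. At 48 h 4 passed, 7 with the replicate block and 1 to 4 with a replicate left out. At 72 h 3 passed and 1 to 3 with a replicate left out, and at 96 h 3, 6 with the block and 1 to 3. For WT–mCherry cells by neighbour, 0 passed at 48 h and 4 with the block, and 1 at 96 h and 0 with any replicate left out. At 120 h 1 passed, against 0 with TMM, without the filter, in the compared groups alone, with any replicate left out and after subtraction of emiRFP RNA, 2 with DESeq2 and 4 with the block.

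Between the WT clones 0 passed at 0 h and 0 to 1 with a replicate left out. At 48 h 0 passed, 1 without the filter and 4 with the block. The clones at 96 h had 0, 1 without the filter and 3 with the block, and those at 120 h 0, 1 and 4 likewise. At 72 h 1 passed, 2 without the filter, 2 with DESeq2, 3 with the block, 0 in the compared groups alone and 0 to 1 with a replicate left out. At 144 h 4 passed, 7 without the filter, 8 with the block and 0 to 3 with a replicate left out. From 96 to 120 h in p53KO–emiRFP cells 8 passed and 5 to 8 with a replicate left out. The p53KO effect at 144 minus 120 h passed for 4, and for 2 to 3 with a replicate left out, and the neighbour effect for 6, and for 2 to 5.

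In 3 comparisons 1 pair of same-numbered libraries had an r under 0.1, namely by neighbour at 120 h (0.072) and between clones at 0 h (0.086) and 72 h (0.038), so the block counts there rest on weaker pairing. Every member had at least 417 counts in every library, and the number of libraries, 3 a group, limits the precision.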
